A study of Homo sapiens with 12 samples.

Results

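The snoRNA host genes are the genes whose introns hold small nucleolar RNAs and whose spliced product is itself a non-coding RNA. They were taken as every symbol made of SNHG and a number, together with GAS5 and ZFAS1, which gave 29 genes of the 24180 symbols in the count tables. Their expression was measured by RNA-seq in 143B cells, an established human osteosarcoma line labelled wild type, in 4 groups of 3 libraries. NC is the control, BSG is named for the borosilicate bioactive glass of the series title, M-BSG stands for the material called 5-MNP-BSG in the sample titles, and M-BSG-Hot for the same material with a plus sign, that is, the heated group by its name. All 12 samples, controls included, carry the same treatment text naming 5-MNP-BSG and an alternating magnetic field, so dose, field and exposure time per group are not resolved. No label says that the libraries of a group came from separate cultures, and p-values then measure only the spread between these libraries, which may be technical.

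A host gene of this kind is transcribed as a long precursor. Splicing releases the introns, from which the snoRNAs are trimmed, and the joined exons leave as a separate RNA. Box C/D snoRNAs guide ribose methylation and box H/ACA snoRNAs guide pseudouridylation of ribosomal RNA, while the related scaRNAs guide modification of spliceosomal RNAs in Cajal bodies. The spliced RNAs of several hosts, GAS5 and SNHG1 among them, are bound by ribosomes and broken down by nonsense-mediated decay, so that they are short-lived and their level follows transcription and translation closely. Many hosts start with a terminal oligopyrimidine (TOP) motif, a run of C and T bases shared with ribosomal protein mRNAs that ties translation to growth signals. Decay was not measured here, and the snoRNAs themselves were not analysed.

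By the NCBI RefSeq annotation of GRCh38.p14, 14 of the 29 genes hold mostly box C/D snoRNAs, 10 mostly box H/ACA snoRNAs and 4 a scaRNA, and for SNHG28 the class is not named. The number of snoRNAs inside a host went from 1 to 84, the latter in SNHG14, the long host of the imprinted Prader-Willi region. GAS5 holds 11, SNHG1 9, SNHG12 4, ZFAS1 3, and SNHG3, SNHG4 and SNHG5 2 each. RefSeq promoter sequences were matched for 25 of the 29, all but SNHG6, SNHG9, SNHG15 and SNHG25. An unbroken run of at least 5 C or T bases on the transcript strand, reaching within 3 bases of the annotated start, stood in 17 of the 25 (68.0%), against 29.0% of 27305 promoters in the table and 83.9% of 62 ribosomal protein genes. The letters TATAA, 40 to 20 bases before the start on the same strand, stood in 6 of the 25 (24.0%), against 4.1% of all promoters. The pyrimidine run and its window were chosen with the sequences in view. Only 1 annotated start per gene was used. These and the following counts hold for that start only, as does the absence of a run in GAS5. Over the 300 bases and both strands, the E-box CACGTG stood in 2 of 25 (7.4% of all promoters), the full cAMP response element in 0 of 25 (2.0% of all), the AP-1 letters TGANTCA in 0 of 25 (7.8% of all), and the heat shock element of alternating GAA and TTC units in 1 of 25, GAS5 (0.5% of all).

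The starts of 11 hosts are shown from 40 bases before the annotated start to 30 bases from it, 5′ to 3′ on the transcript strand. They are all the hosts called in at least 1 comparison below for which a promoter sequence was matched; SNHG15 and SNHG25 were called and have none. Capitals mark the pyrimidine run at the start and, further left, the letters TATAA. Positions are those of RefSeq on GRCh38.p14 and not of the count tables, whose build is unresolved.
SNHG12, chr1:28581844-28581913, minus strand: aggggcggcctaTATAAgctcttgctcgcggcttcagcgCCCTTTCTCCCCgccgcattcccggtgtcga
SNHG1, chr11:62855856-62855925, minus strand: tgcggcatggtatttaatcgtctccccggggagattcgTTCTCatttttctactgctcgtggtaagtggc
SNHG5, chr6:85678704-85678773, minus strand: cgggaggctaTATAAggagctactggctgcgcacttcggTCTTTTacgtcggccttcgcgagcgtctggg
SNHG26, chr7:22854200-22854269, plus strand: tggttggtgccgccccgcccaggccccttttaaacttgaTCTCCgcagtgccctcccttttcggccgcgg
ZFAS1, chr20:49278602-49278671, plus strand: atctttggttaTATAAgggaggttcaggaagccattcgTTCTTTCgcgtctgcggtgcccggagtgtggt
SNHG7, chr9:136728155-136728224, minus strand: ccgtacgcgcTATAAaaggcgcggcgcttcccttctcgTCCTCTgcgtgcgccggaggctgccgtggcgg
SNHG11, chr20:38446614-38446683, plus strand: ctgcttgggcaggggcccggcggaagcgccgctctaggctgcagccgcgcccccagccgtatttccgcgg
SNHG4, chr5:139274061-139274130, plus strand: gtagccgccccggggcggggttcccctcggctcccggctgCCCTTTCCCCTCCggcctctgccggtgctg
SNHG3, chr1:28505903-28505972, plus strand: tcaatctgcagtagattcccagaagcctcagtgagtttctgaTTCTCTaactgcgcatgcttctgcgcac
SNHG10, chr14:95534843-95534912, minus strand: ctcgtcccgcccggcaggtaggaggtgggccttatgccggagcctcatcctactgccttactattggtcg
SNHG20, chr17:77088603-77088672, plus strand: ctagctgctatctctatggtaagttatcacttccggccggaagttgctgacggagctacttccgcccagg
SNHG12 and SNHG4 carry the longest runs of these 11, of 12 and 13 bases, and SNHG10, SNHG11 and SNHG20 carry none.

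The libraries held 34434993 to 38163152 counts, so that a count of 0 allows up to 0.0786 to 0.0871 CPM (counts scaled to the library total), by counting error only. By a chi-square test of counts, per degree of freedom, BSG 1 differed from the other BSG libraries by 48.2 to 65.4 where those differed by 7.87, M-BSG 1 by 34.9 to 60.3 where the others differed by 8.71, and M-BSG-Hot 3 by 18.9 to 43.1 where the others differed by 16.3. Ribosomal protein genes took 7.53% to 11.3% of counts, with the high end in BSG 1. Markers of the mesenchymal lineage were present, with VIM at 3480 CPM or more in every library, SPARC at 321 to 392, RUNX2 at 10.2 to 16.9, COL1A1, a bone collagen, at 5.23 to 8.91 and ALPL at 1.81 to 3.56 CPM. TWIST1 of the same list rose from 9.81 CPM in NC to 16.5 in BSG (log2 0.75, adjusted p = 0.000181) and 13.5 in M-BSG (log2 0.46, adjusted p = 0.00990). The summed mesenchymal list was at 3850 to 4180 CPM in NC, 4130 to 5010 in BSG, 3950 to 4420 in M-BSG and 4180 to 4890 in M-BSG-Hot. Of the epithelial markers CDH1 was at no more than 0.170 CPM, although EPCAM reached 13.7 to 21.9 CPM and CD68, also a lysosomal protein, 120 to 165 CPM. Summed levels over the epithelial list were 14.8 to 16.8 CPM in NC, 17.8 to 23.2 in BSG, 15.4 to 19.4 in M-BSG and 16.0 to 17.7 in M-BSG-Hot. Those over the endothelial list were 1.56 to 1.76, 1.18 to 1.59, 1.42 to 1.89 and 1.96 to 2.87 CPM, and those over the immune list 134 to 153, 130 to 139, 125 to 153 and 120 to 166 CPM, in the same order. CD14 rose from 0.539 CPM in NC to 1.80 in BSG and 1.13 in M-BSG. The part of these markers in the results on the hosts was not tested. Because cells were pooled, fewer cells with a transcript and less of it per cell cannot be told apart.

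Per gene length, the hosts spanned a wide range in control cells. Of the 29, 25 were above 1 FPKM (fragments scaled by gene length and library total) and 17 above 10 FPKM in NC, with a median of 20.2 FPKM against 4.63 FPKM over all 15407 genes tested. SNHG29, host of 3 box C/D snoRNAs, stood highest at 652 ± 22.9 FPKM (SD, n = 3), followed by GAS5 at 360 ± 9.01, ZFAS1 at 253 ± 19.3 and SNHG32 at 199 ± 11.4 FPKM. Each of these 4 is separated from the next by more than their SDs. SNHG6 at 117 ± 3.54 and SNHG1 at 76.0 ± 1.52 FPKM followed, and SNHG1 and SNHG8, at 71.4 ± 5.26, lay within their spread. SNHG17, SNHG16, SNHG5 and SNHG19, at 52.3, 48.5, 48.1 and 44.8 FPKM, could likewise not be ordered beyond their SDs. In the middle of the order SNHG25 was at 30.5 ± 5.97, SNHG3 at 28.2 ± 1.35, SNHG15 at 25.9 ± 1.98 and SNHG7 at 20.2 ± 1.12 FPKM. SNHG11 at 11.1 ± 0.384 and SNHG12 at 10.3 ± 0.652 FPKM lay within their spread, and SNHG10 followed at 6.82 ± 0.285 FPKM. SNHG4 reached 5.53 ± 0.437 and SNHG26 2.91 ± 0.346 FPKM. At the low end SNHG18, SNHG28, SNHG31 and SNHG22 stayed below 1 FPKM. SNHG22 was too low to be tested, at 0 to 0.394 CPM, which leaves 28 hosts in the tests.

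**Figure D1:**
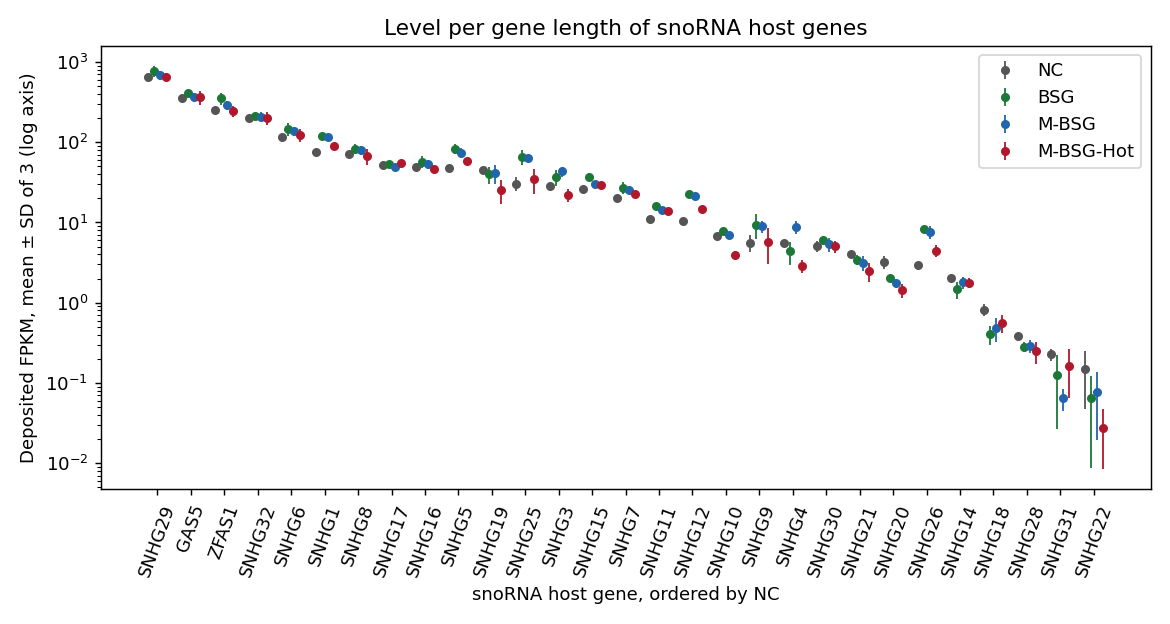
Deposited FPKM of the 29 snoRNA host genes on a log axis, mean and SD of 3 libraries in each of the 4 groups, ordered by the level in NC. SNHG29, GAS5 and ZFAS1 lead in NC with 652, 360 and 253 FPKM, and SNHG22 is last.

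BSG against NC addresses the response to the glass, as far as the group names tell. Of the 28 hosts tested, 9 rose and 1 fell, where 5.50% of all genes were called higher and 6.22% lower (11.7% together), so that 32.1% and 3.57% of the hosts stand beside these shares. The median log2 fold change was 0.32 over the hosts and -0.02 over all genes. BSG libraries lay wholly above NC for 16 hosts and wholly below for 2, against 18.1% and 20.6% of all genes. The calls come from edgeR's quasi-likelihood test at a Benjamini-Hochberg adjusted p under 0.05, and expression values by library are TMM-scaled CPM. Of the called hosts that rose, 5 hold mostly box C/D and 4 mostly H/ACA snoRNAs, while of 3 scaRNA hosts 1 fell, as the plot of hosts by library shows.

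**Figure D2:**
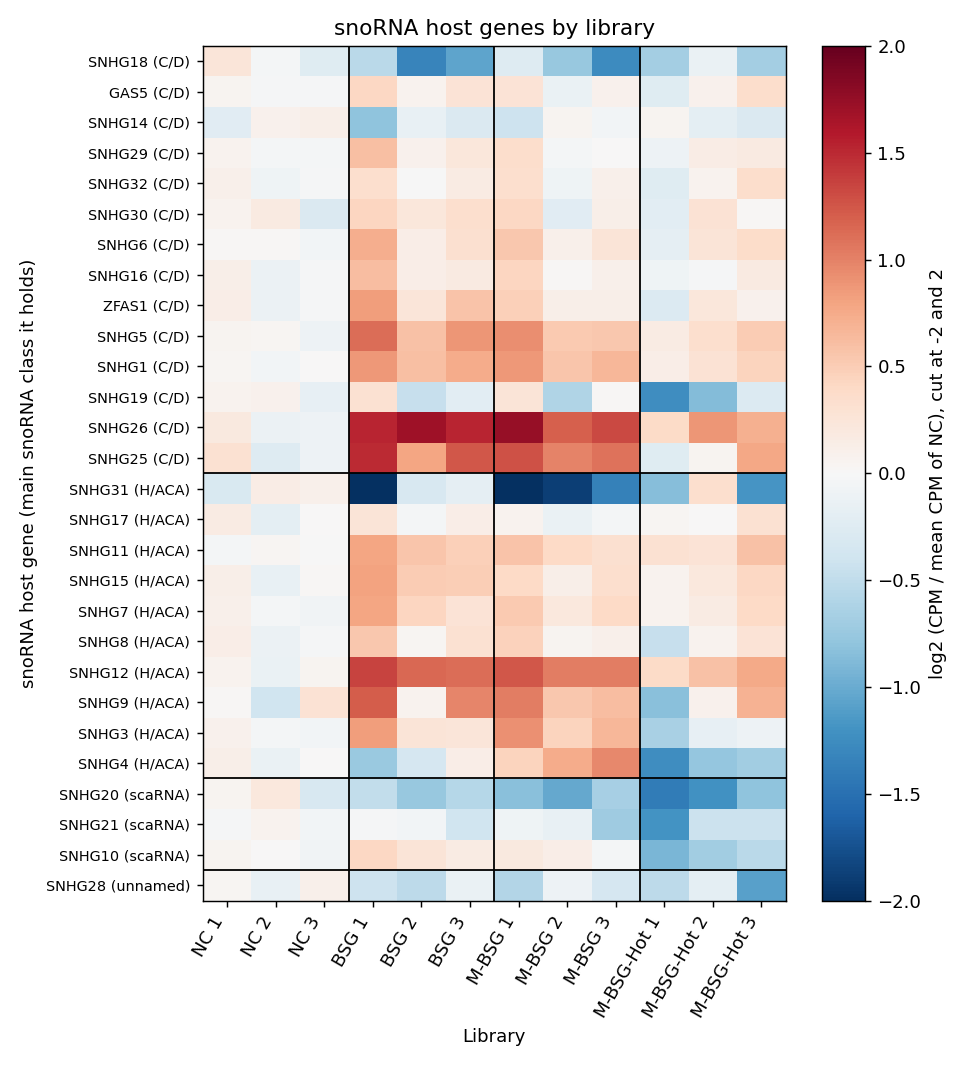
Log2 ratio of CPM to the NC mean for the 28 tested snoRNA host genes (rows, grouped by main snoRNA class) in 12 libraries (columns, NC then BSG, M-BSG and last M-BSG-Hot); red is above and blue below the NC mean. SNHG12 and SNHG26 are red in the BSG and M-BSG libraries, and SNHG20 is blue in the 9 libraries outside NC.

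SNHG12, host of 3 H/ACA snoRNAs and SNORD99, had 22.1, 19.3 and 21.9 CPM in NC and 54.0, 46.9 and 45.6 CPM in BSG. Every BSG library was above every NC library, and the rise was 2.31-fold (log2 1.21, SE 0.109, adjusted p = 7.38e-06). SNHG26, host of SNORD93, went from 2.47, 1.97 and 2.00 CPM to 6.16, 6.93 and 6.15 CPM. This was the largest fold among the called hosts, 2.99-fold (log2 1.58, SE 0.182, adjusted p = 7.20e-05). SNHG1, whose introns carry the SNORD25 to SNORD31 series and SNORD22, had 115, 108 and 112 CPM in NC and 204, 170 and 186 CPM in BSG. It rose 1.67-fold (log2 0.74, SE 0.0998, adjusted p = 0.000286) without overlap.

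SNHG5, host of the U50 snoRNAs SNORD50A and SNORD50B, had 24.5, 24.2 and 21.9 CPM in NC and 51.2, 35.5 and 43.2 CPM in BSG, a log2 rise of 0.88 (SE 0.142, adjusted p = 0.00124). BSG 1 was the highest library and the groups did not overlap. SNHG25, the short host of SNORD104, had 4.03, 2.73 and 3.05 CPM in NC and 9.23, 5.65 and 7.77 CPM in BSG (log2 1.21, SE 0.247, adjusted p = 0.00608). SNHG11, host of SNORA60 and SNORA71E, had 11.4, 12.0 and 11.6 CPM in NC against 20.2, 17.2 and 16.2 CPM (log2 0.61, SE 0.116, adjusted p = 0.00371). For both of these hosts the lowest BSG library lay above the highest NC library. SNHG15, host of SNORA9, had 26.6, 22.3 and 25.0 CPM in NC against 42.8, 34.9 and 34.6 CPM (log2 0.60, SE 0.117, adjusted p = 0.00444).

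ZFAS1, which starts beside ZNFX1 and holds the SNORD12 family, had 275, 232 and 248 CPM in NC and 451, 298 and 374 CPM in BSG, a log2 rise of 0.57 (SE 0.154, adjusted p = 0.0293). SNHG7, host of SNORA17A and SNORA17B, had 56.4, 51.3 and 49.9 CPM in NC and 90.5, 70.4 and 63.3 CPM in BSG (log2 0.51, SE 0.130, adjusted p = 0.0230). BSG 1 was the highest library for both, and neither overlapped with NC. SNHG20, host of SCARNA16, was the single host that fell, from 7.09, 7.89 and 5.42 CPM to 4.84, 4.03 and 4.58 CPM (log2 -0.60, SE 0.181, adjusted p = 0.0463). GAS5, named for its accumulation in growth-arrested cells, had 308, 290 and 290 CPM in NC and 395, 311 and 356 CPM in BSG, and this difference of 0.26 (SE 0.139, adjusted p = 0.220) was not called.

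The ZFAS1 call was lost without BSG 1, BSG 3, NC 2 or NC 3 (adjusted p = 0.105, 0.0657, 0.121 and 0.0985), and that of SNHG7 without BSG 1, NC 2 or NC 3 (0.0781, 0.0875 and 0.0961). SNHG20 lost its call without NC 1 (0.112), NC 2 (0.182), BSG 1 (0.0775), BSG 2 (0.0965), BSG 3 (0.0862), M-BSG 3 (0.0560) or M-BSG-Hot 2 (0.0655), and in a fit of the BSG and NC libraries alone (0.0537).

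M-BSG against NC addresses the response to the magnetic material without heating. Here 8 hosts rose and 1 fell, 28.6% and 3.57% of the 28, where 3.22% of all genes were called higher and 3.13% lower (6.35% together). The median log2 fold change was 0.20 over the hosts and -0.01 over all genes, and 12 hosts lay wholly above and 4 wholly below NC, against 12.4% and 15.1% of all genes. Of the hosts called higher, 6 were among the 9 called higher in BSG, SNHG1, SNHG5, SNHG11, SNHG12, SNHG25 and SNHG26. The 2 comparisons share the NC libraries, so that this overlap is not independent.

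SNHG12 stood at 49.7, 42.7 and 42.8 CPM in M-BSG, a log2 rise of 1.10 (SE 0.109, adjusted p = 2.78e-05). SNHG26 stood at 7.15, 4.90 and 5.35 CPM, a log2 rise of 1.43 (SE 0.182, adjusted p = 0.000227), and SNHG1 at 203, 164 and 176 CPM, a log2 rise of 0.70 (SE 0.0998, adjusted p = 0.000626). In each of the 3 the replicate M-BSG 1 was the highest and no library overlapped with NC. SNHG25 reached 7.89, 6.47 and 6.93 CPM (log2 1.12, SE 0.247, adjusted p = 0.0140). SNHG5 reached 44.8, 33.8 and 34.3 CPM (log2 0.68, SE 0.142, adjusted p = 0.0103). SNHG11 reached 17.4, 15.3 and 14.6 CPM (log2 0.43, SE 0.117, adjusted p = 0.0407). All of these M-BSG values lay above those of NC.

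SNHG4 and SNHG3, both H/ACA hosts, were called here and not in BSG, although DESeq2 and edgeR with no count filter also called SNHG3 higher in BSG. The direct test between the 2 materials follows further on. SNHG4, host of SNORA74A, the U19 snoRNA, had 8.99, 7.50 and 8.28 CPM in NC and 11.2, 13.8 and 16.0 CPM in M-BSG, a log2 rise of 0.73 (SE 0.202, adjusted p = 0.0478). SNHG3, host of the U17 snoRNAs SNORA73A and SNORA73B, which take part in cleavage of the ribosomal RNA precursor, had 68.1, 62.0 and 61.4 CPM in NC and 120, 86.8 and 101 CPM in M-BSG (log2 0.69, SE 0.171, adjusted p = 0.0278). SNHG20 stood at 3.81, 3.33 and 4.31 CPM, a log2 fall of -0.83 (SE 0.182, adjusted p = 0.0133). ZFAS1, at 350, 273 and 272 CPM (adjusted p = 0.449), GAS5, at 357, 269 and 315 CPM (adjusted p = 0.823), SNHG7, at 75.8, 60.6 and 69.1 CPM (adjusted p = 0.113), and SNHG15, at 32.4, 26.6 and 31.1 CPM (adjusted p = 0.198), were not called.

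The number called higher was 5 without NC 1, 4 without NC 2, 3 without NC 3 and 5 without M-BSG 3. Over all genes these fits called 317, 295, 306 and 327 higher, against 496 with all 12 libraries. SNHG4 lost its call without NC 1 (adjusted p = 0.0974), NC 2 (0.183), NC 3 (0.144), M-BSG 2 (0.106), M-BSG 3 (0.198), BSG 2 (0.0609) or M-BSG-Hot 2 (0.0634), and with scaling by library size only (0.0747) or the strict count filter (0.0644). SNHG3 lost it without NC 1, NC 2, NC 3, M-BSG 1 or M-BSG 3 (0.0684, 0.109, 0.111, 0.0845 and 0.0765). SNHG11 lost it without any 1 of the NC or M-BSG libraries or without BSG 2 (0.0530 to 0.134) and with the strict count filter (0.0564), SNHG25 without NC 2 or NC 3 (0.0789 and 0.0675), SNHG5 without NC 3 (0.0596), and SNHG20 without NC 1, NC 2 or M-BSG 2 (0.0553, 0.0774 and 0.0604).

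Between the 2 unheated materials, M-BSG against BSG, edgeR called 0 hosts higher and 0 lower, where 0% of all genes were called higher and 0.130% lower. At an unadjusted p under 0.05 there was 1 host on each side, SNHG4 higher and SNHG15 lower. How many of all genes passed this unadjusted threshold was not counted, here or below. DESeq2 called 1 higher, SNHG4, among 13 of all genes, and limma-voom 0. Libraries did not overlap for 1 host in each direction, against 4.08% of all genes higher and 4.82% lower. SNHG4 had 4.93, 6.51 and 9.06 CPM in BSG against 11.2, 13.8 and 16.0 CPM in M-BSG, without overlap, a log2 difference of 1.00 (SE 0.204, adjusted p = 0.114, unadjusted p = 0.000251). For SNHG3, with 114, 76.5 and 75.7 CPM in BSG, the groups overlapped and the log2 difference was 0.21 (SE 0.170, adjusted p = 0.656). SNHG15 had a log2 difference of -0.32 (SE 0.117, adjusted p = 0.635), without overlap. The count was 1 higher, SNHG4, also with no count filter, among 6 of all genes, and it was 1 without BSG 3. SNHG4 was called higher as well with a block for the replicate number, among 2 of all genes. The same held without BSG 1, M-BSG 1 and M-BSG-Hot 3, among 73 of all genes. With the ribosomal protein share as a covariate SNHG3 and SNHG4 were called higher, among 19 of all genes.

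**Figure D3:**
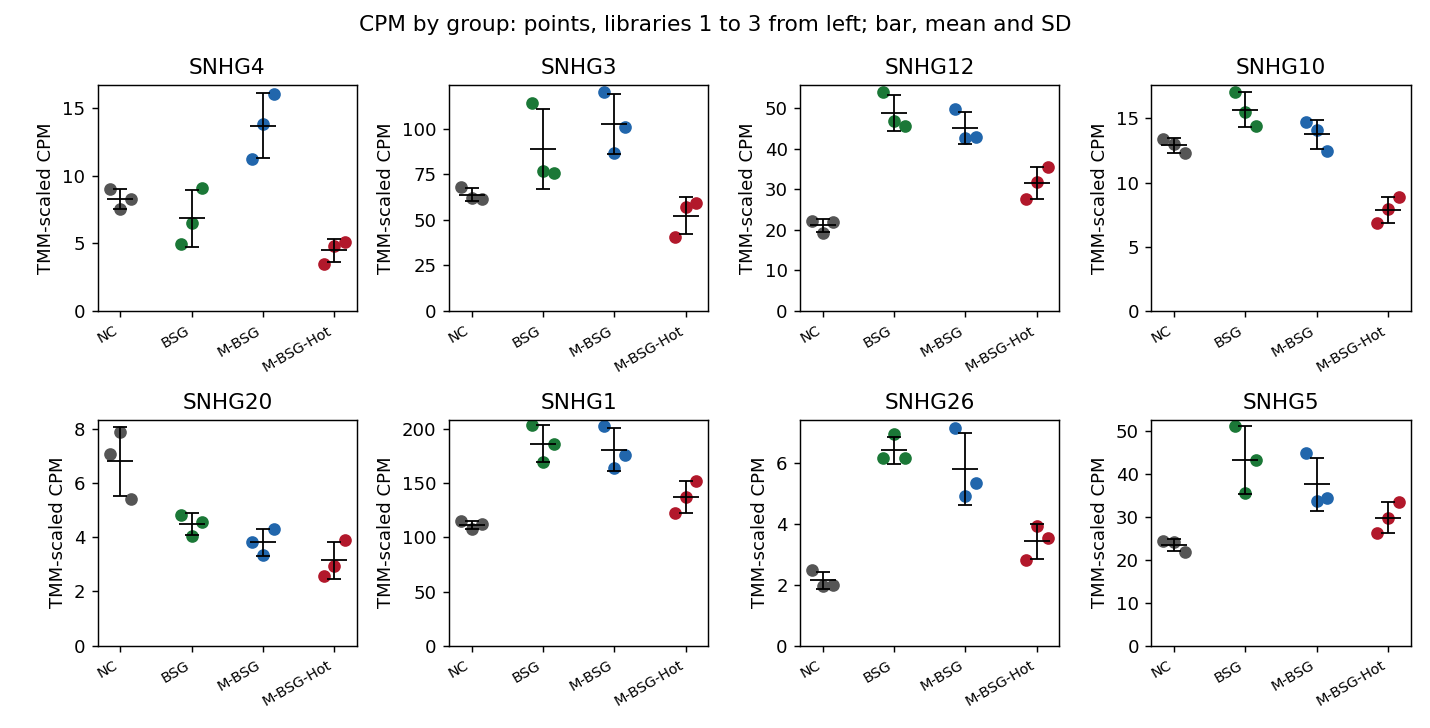
TMM-scaled CPM of 8 snoRNA host genes by group; points are the 3 libraries and bars the mean and SD. The M-BSG-Hot libraries of SNHG4 (3.48 to 5.11 CPM) and SNHG10 (6.85 to 8.85 CPM) lie below all libraries of NC and M-BSG, and those of SNHG12 lie between NC and M-BSG.

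M-BSG-Hot against NC addresses the magnetic material together with heating. Of the hosts, 1 of the 28 hosts rose (3.57%, where 1.40% of all genes were called higher) and 3 fell (10.7%, where 3.51% of all genes were called lower, 4.91% together). The median log2 fold change was 0.07 over the hosts and 0.00 over all genes. Libraries lay wholly above NC for 5 hosts and wholly below for 7, against 13.5% and 14.5% of all genes. The host that rose was SNHG12, at 27.5, 31.7 and 35.5 CPM, all above NC (log2 0.58, SE 0.109, adjusted p = 0.00630).

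SNHG10, host of SCARNA13, had 13.4, 13.0 and 12.3 CPM in NC and 6.85, 7.94 and 8.85 CPM in M-BSG-Hot, a fall of 1.64-fold (log2 -0.71, SE 0.116, adjusted p = 0.00232). SNHG20 had 2.58, 2.95 and 3.91 CPM in M-BSG-Hot, a fall of 2.16-fold (log2 -1.11, SE 0.185, adjusted p = 0.00264). SNHG4 had 3.48, 4.83 and 5.11 CPM, a fall of 1.85-fold (log2 -0.88, SE 0.212, adjusted p = 0.0273). None of the 3 overlapped with NC, and 2 of them, SNHG10 and SNHG20, are the hosts of a scaRNA. The other hosts that were high in the unheated groups were not called against NC in the edgeR fit used throughout. SNHG26 was at 2.80, 3.94 and 3.53 CPM (log2 0.68, adjusted p = 0.0545), SNHG11 at 14.4, 14.1 and 17.5 CPM (0.40, adjusted p = 0.0735) and SNHG1 at 123, 137 and 152 CPM (0.29, adjusted p = 0.126). SNHG5 was at 26.3, 29.7 and 33.5 CPM (0.34, adjusted p = 0.231). These 4 still lay wholly above NC. DESeq2 called SNHG11 and SNHG26 higher here, among 397 of all genes where edgeR called 215. SNHG26 was also called with RLE scaling, with no count filter and without BSG 1, M-BSG 1 and M-BSG-Hot 3. With the ribosomal protein share as a covariate SNHG1, SNHG5, SNHG11 and SNHG26 were called higher, among 952 of all genes.

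SNHG4 lost its call without NC 1, NC 2, NC 3, M-BSG-Hot 1 or M-BSG-Hot 2 (adjusted p = 0.0990, 0.0600, 0.0854, 0.115 and 0.0678). The number called higher was 3 without BSG 1, 2 without M-BSG 1 and 2 without M-BSG-Hot 1. Over all genes these fits called 304, 234 and 173 higher, against 215 with all 12 libraries.

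The heating step is compared most directly by M-BSG-Hot against M-BSG, which carry the same material name. Of the 28 hosts, 4 fell (14.3%), where 0.597% of all genes were called lower, and 0 rose, where 0.0974% of all genes were called higher (0.694% together). DESeq2 and limma-voom also called 0 higher, and 0 were higher at an unadjusted p under 0.05, against 9 lower. The unadjusted counts have no share of all genes beside them. The fold change was below 0 for 24 of the 28, with a median of -0.22 on the log2 scale against 0.00 over all genes. Libraries of M-BSG-Hot lay wholly below M-BSG for 8 hosts and wholly above for 1, against 7.50% and 6.28% of all genes. DESeq2 called 7 lower, SNHG1, SNHG25 and SNHG26 in addition to the 4, and it called 229 of all genes lower where edgeR called 92.

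SNHG4 showed the largest fall, from 11.2, 13.8 and 16.0 CPM to 3.48, 4.83 and 5.11 CPM, 3.06-fold (log2 -1.61, SE 0.211, adjusted p = 0.00496). SNHG3 fell 1.96-fold, from 120, 86.8 and 101 CPM to 40.8, 56.8 and 59.4 CPM (log2 -0.97, SE 0.172, adjusted p = 0.0215). SNHG10 fell 1.74-fold, from 14.7, 14.1 and 12.5 CPM to 6.85, 7.94 and 8.85 CPM (log2 -0.80, SE 0.116, adjusted p = 0.00669). SNHG12 fell 1.43-fold, from 49.7, 42.7 and 42.8 CPM to 27.5, 31.7 and 35.5 CPM (log2 -0.52, SE 0.107, adjusted p = 0.0464). In each of the 4 the highest heated library was below the lowest unheated one. Levels in M-BSG-Hot were below NC for SNHG4, SNHG3 and SNHG10 and above NC for SNHG12. For SNHG3, whose M-BSG-Hot libraries also lay wholly below NC, that difference was not called in the edgeR fit used throughout (log2 -0.29, adjusted p = 0.431). SNHG3 was called lower than NC without BSG 1, M-BSG 1 and M-BSG-Hot 3, and with the ribosomal protein share as a covariate.

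The next hosts did not pass. SNHG26 stood at -0.76 on the log2 scale (SE 0.175, adjusted p = 0.0787), SNHG1 at -0.40 (SE 0.0994, adjusted p = 0.113), SNHG25 at -0.85 (SE 0.244, adjusted p = 0.196) and SNHG5 at -0.33 (SE 0.141, adjusted p = 0.505), each without overlap. SNHG25 stood at 2.77, 3.41 and 5.59 CPM in M-BSG-Hot. Of the most abundant hosts, GAS5 and SNHG29 differed little, and ZFAS1 differed by as much as the median over the hosts. With the ribosomal protein share as a covariate ZFAS1 was called lower, as were SNHG1, SNHG5, SNHG25 and SNHG26, among 515 of all genes. GAS5 had 249, 313 and 379 CPM in M-BSG-Hot against 357, 269 and 315 CPM in M-BSG (log2 0.00, SE 0.139), ZFAS1 209, 293 and 267 CPM against 350, 273 and 272 CPM (log2 -0.22, SE 0.154), and SNHG29 differed by -0.04. SNHG20, at 2.58, 2.95 and 3.91 CPM, was also low in the unheated group and differed by -0.28 (SE 0.189, adjusted p = 0.758). SNHG7, at 55.3, 59.1 and 69.5 CPM, SNHG11, and SNHG15, at 26.0, 28.6 and 32.8 CPM, overlapped with M-BSG.

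SNHG4 kept its call in each of 22 alternatives, with an adjusted p of 0.0432 at most, and SNHG10 lost it in a fit of the 2 groups alone (0.0627). SNHG3 lost it in that fit (0.0627) and without M-BSG 3 (0.0989), M-BSG-Hot 1 (0.105) or M-BSG-Hot 2 (0.0575), and SNHG12 in 13 of 22, including the fit of the 2 groups (0.155), the strict count filter (0.0559) and leaving out NC 1 (0.0745), NC 2 (0.0699), NC 3 (0.0807), BSG 2 (0.0671), BSG 3 (0.0686), M-BSG 1 (0.132), M-BSG 2 (0.0886), M-BSG 3 (0.156), M-BSG-Hot 1 (0.218) or M-BSG-Hot 2 (0.141). The number called lower was 2 without M-BSG 3, without M-BSG-Hot 1 or without M-BSG-Hot 2. Over all genes these fits called 22, 27 and 63 lower, against 92 with all 12 libraries.

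**Figure D4:**
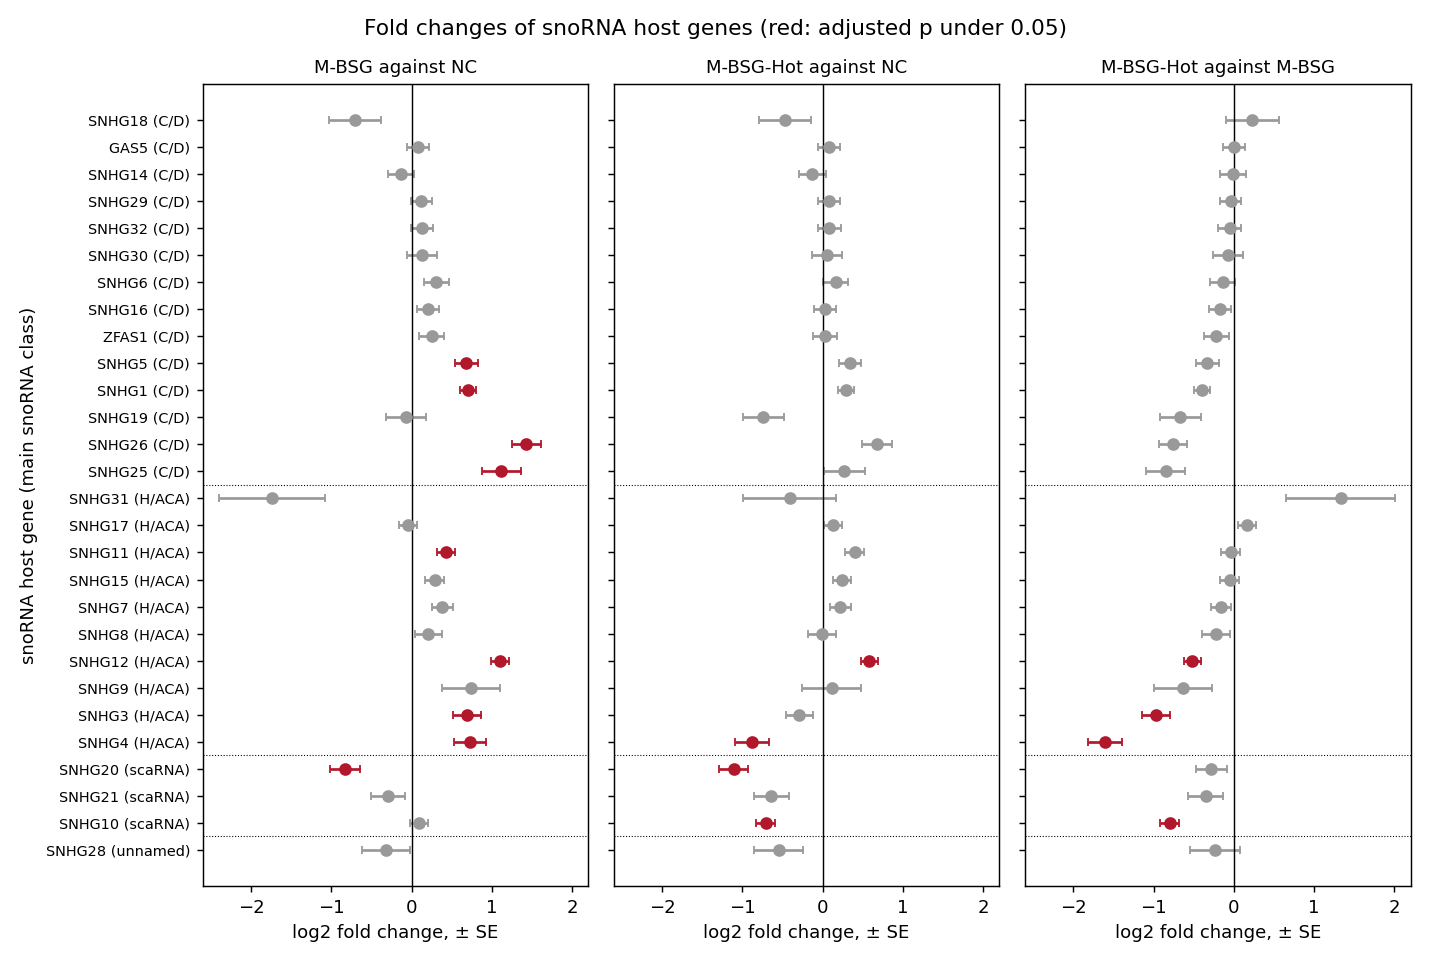
Log2 fold changes with SE of the 28 tested snoRNA host genes (rows, by main snoRNA class) in 3 comparisons; red points have an adjusted p under 0.05. In M-BSG-Hot against M-BSG the red points are SNHG4, SNHG3, SNHG12 and SNHG10, all left of 0, and no box C/D host is red.

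Set out by the snoRNAs they carry, the hosts called lower in M-BSG-Hot against M-BSG were 3 of 10 H/ACA hosts, 1 of 3 scaRNA hosts and 0 of 14 box C/D hosts. DESeq2 called 3 of the 14 box C/D hosts, SNHG1, SNHG25 and SNHG26. By edgeR 5 of the 14 were lower at an unadjusted p under 0.05, a threshold not counted over all genes. The median log2 fold change was -0.19 for the H/ACA hosts and -0.16 for the box C/D hosts, so that these 2 medians lay close together. It was -0.35 for the scaRNA hosts, of which only 3 were tested. In BSG against NC, 4 of 10 H/ACA and 5 of 14 box C/D hosts rose, with medians of 0.49 and 0.33, and in M-BSG against NC 4 of 10 and 4 of 14, with medians of 0.41 and 0.16. By the start sequence, 3 of 17 hosts with the pyrimidine run and 1 of 7 without it fell in M-BSG-Hot against M-BSG. The medians over the 17 and the 7 were -0.22 and -0.07. Among the hosts that rose in BSG were 6 of the 17 and 1 of the 7, with medians over the 17 and the 7 of 0.31 and 0.28. Of all genes, 0.597% were called lower in M-BSG-Hot against M-BSG, and 5.50% higher in BSG and 3.22% higher in M-BSG against NC. These groupings were made with the values known and the differences between them were not tested.

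The 14 tested hosts outside those described library by library were called in none of the 5 comparisons by edgeR with all 12 libraries, the filter used throughout and no covariate. Of these, 9 had an unadjusted p under 0.05 in at least 1 of the 5, a count not made over all genes. DESeq2 called SNHG18 lower in BSG. With no count filter or with the 2 groups alone edgeR called SNHG19 lower in M-BSG-Hot against NC, and with the 2 groups alone SNHG31 lower in M-BSG against NC. Without the 3 libraries of highest ribosomal share, or with that share as a covariate, it called SNHG18 lower in BSG and SNHG19 and SNHG21 lower in M-BSG-Hot, each against NC. The covariate fit called further ones of the 14, SNHG6, SNHG8, SNHG16 and SNHG19, lower in M-BSG-Hot against M-BSG, SNHG19 lower in BSG and SNHG6 higher in M-BSG against NC. SNHG29 ranged from 1480 to 2400 CPM, with a median of 1670 over 12 libraries and log2 fold changes of -0.20 to 0.32. SNHG16, host of SNORD1A, SNORD1B and SNORD1C, ranged from 110 to 182 CPM, SNHG32, host of SNORD48 and SNORD52, from 138 to 209 with log2 fold changes of -0.05 to 0.17, and SNHG6, host of SNORD87, from 70.8 to 132 CPM. SNHG17, host of the SNORA71 group, had log2 fold changes of -0.16 to 0.16 around a median of 75.8 CPM. SNHG19, host of SNORD60, was at 6.50, 8.43 and 12.8 CPM in M-BSG-Hot against 16.1, 16.3 and 13.8 CPM in NC, wholly below but not called (log2 -0.74, adjusted p = 0.135). SNHG21, host of SCARNA15, ranged from 1.79 to 4.34 CPM and SNHG14 from 21.6 to 40.9 CPM. The lowest hosts, SNHG18, SNHG28 and SNHG31, were at 1.39 CPM or less in every library, and the log2 fold changes of SNHG31, from -1.74 to 1.33, rest on 0.0280 to 0.617 CPM.

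Within groups, many hosts had their highest and lowest levels where the ribosomal protein share was highest and lowest. In NC the library with the highest share, NC 1 at 8.38%, was also the highest for 18 of 28 hosts. In BSG this held for 23 hosts in BSG 1 at 11.3%, in M-BSG for 23 in M-BSG 1 at 9.94%, and in M-BSG-Hot for 20 in M-BSG-Hot 3 at 9.85%. The library with the lowest share was the lowest for 14 of the 28 in NC, 17 in BSG, 19 in M-BSG and 22 in M-BSG-Hot. Such counts were made for the hosts only and not over all genes. Whether the hosts differ from other genes in this order was therefore not tested. BSG 1, M-BSG 1 and M-BSG-Hot 3 were also the libraries that differed most from their groups by the chi-square test of counts. The summed hosts took 0.306% to 0.326% of counts in NC, 0.336% to 0.436% in BSG, 0.312% to 0.389% in M-BSG and 0.275% to 0.339% in M-BSG-Hot. Without the treated libraries of highest share (M-BSG-Hot 3, M-BSG 1 and BSG 1), 9 hosts were called higher in BSG and 9 in M-BSG against NC, and 7 were called lower in M-BSG-Hot against M-BSG, with SNHG1, SNHG19 and SNHG25 beside the 4. Over all genes the same fit called 1103 higher in BSG, 1047 higher in M-BSG and 246 lower in M-BSG-Hot against M-BSG, where the 12 libraries gave 847, 496 and 92. The median over the hosts went from 0.32 to 0.19 in BSG and from 0.20 to 0.07 in M-BSG. In M-BSG-Hot against M-BSG it went from -0.22 to -0.16. With the ribosomal protein share as a covariate, an alternative chosen after seeing the data, the number called lower in M-BSG-Hot against M-BSG was 13 and the number called higher in BSG against NC 9. Over all genes that fit called 515 lower in the first of these comparisons, against 92 in the fit without the covariate, and 1069 against 847 higher in the second. The covariate fit moved the median over the hosts in BSG against NC from 0.32 to 0.05. In M-BSG against NC it went from 0.20 to 0.09, with 11 hosts called higher among 1425 of all genes. It went from 0.07 to -0.05 in M-BSG-Hot against NC and from -0.22 to -0.23 in M-BSG-Hot against M-BSG.

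**Figure D5:**
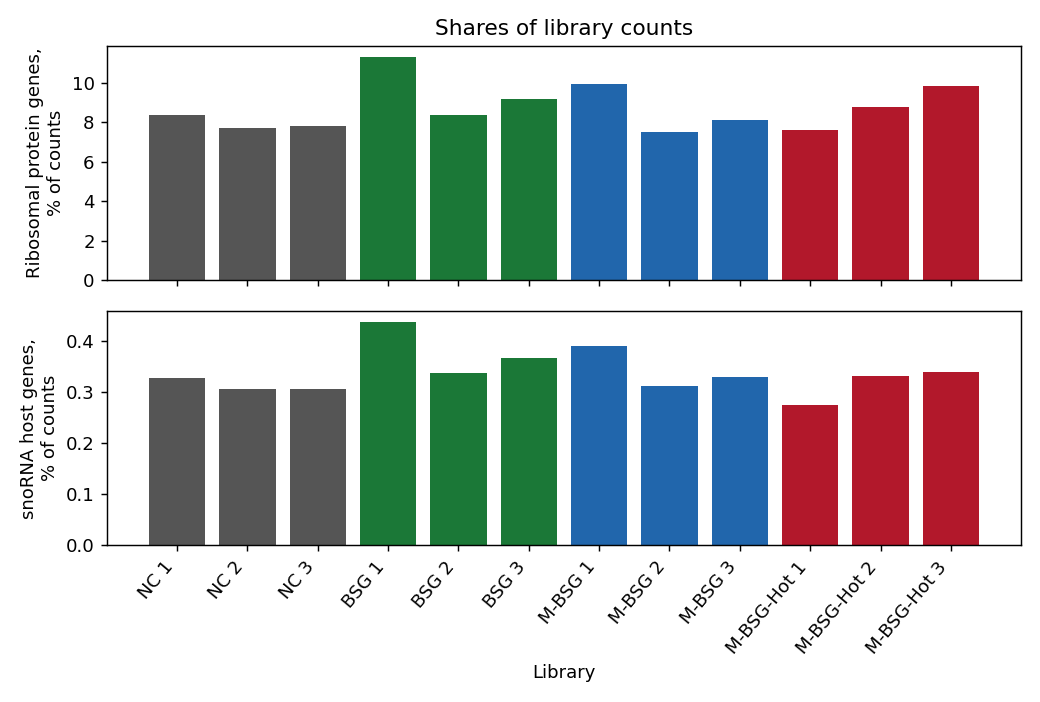
Share of each library's counts in 78 ribosomal protein genes (top) and in the 29 snoRNA host genes (bottom), in percent, by library and coloured by group. BSG 1 is highest in both panels, with 11.3% and 0.436%, and M-BSG-Hot 1 is lowest in the bottom panel with 0.275%.

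Several hosts overlap other genes, and the sources used here do not say whether counting used strand, so their counts are uncertain where reads could be shared. SNHG4 lies in the locus of MATR3, a nuclear matrix protein gene, which was at 407 CPM in M-BSG and 363 in M-BSG-Hot and was not called (log2 -0.17, adjusted p = 0.494). SNHG3 overlaps RCC1, which regulates the GTPase Ran, at 124 and 132 CPM (0.09, adjusted p = 0.805). SNHG12 overlaps TRNAU1AP, at 11.9 and 13.2 CPM (0.15, adjusted p = 0.856); against NC that gene was higher in BSG by 0.53 (adjusted p = 0.0384). SNHG20 overlaps SEC14L1, at 149 CPM in NC and 152 in M-BSG-Hot (0.04, adjusted p = 0.913). These partners, apart from TRNAU1AP in BSG, were not called in the comparisons in which the hosts were. GAS5 overlaps ZBTB37, which fell against NC in BSG by 1.07 (adjusted p = 0.00560) and in M-BSG-Hot by 0.90 on the log2 scale (adjusted p = 0.0258).

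Host genes outside the naming rule were also called higher in the unheated groups. DANCR, a non-coding host of SNORA26, stood at 69.0 CPM in NC, 131 in BSG and 126 in M-BSG, rises of 0.93 and 0.87 (adjusted p = 0.000182 and 0.000386), and EPB41L4A-AS1, host of SNORA13, rose by 0.81 and 0.79 (adjusted p = 0.000995 and 0.00162). In M-BSG-Hot DANCR was at 94.0 CPM and still higher than NC by 0.45 (adjusted p = 0.0450). Of 44 protein-coding hosts tested, 10 rose and 0 fell in BSG, with a median of 0.32. In M-BSG 8 rose and 1 fell, and in M-BSG-Hot against NC 2 rose. Of all genes, 5.50% were called higher and 6.22% lower in BSG, and 3.22% and 3.13% in M-BSG. In M-BSG-Hot against NC 1.40% were called higher. TAF1D, a subunit of the RNA polymerase I selectivity factor, rose by 0.76 in BSG and 0.82 in M-BSG and fell by 0.45 in M-BSG-Hot against M-BSG (adjusted p = 0.0365), the single member of the 44 called there. Of all genes 0.597% were called lower in that comparison. EIF4A2, a translation initiation helicase, rose against NC by 0.58 in BSG, 0.51 in M-BSG and 0.40 in M-BSG-Hot.

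Core proteins of the snoRNA particles bind the snoRNAs themselves. Of 8 such proteins 4 rose in BSG, NOP58 by 0.54, NOP56 by 0.53, GAR1 by 0.37 and DKC1 by 0.23, and 2 in M-BSG, NOP58 by 0.41 and NOP56 by 0.33. Of 10 assembly factors 1 rose in BSG and 1 in M-BSG, in both NOLC1, by 0.27 and 0.25. Of 15 ribosome biogenesis genes 5 rose in BSG and 5 in M-BSG, among them NOP16 by 0.52 and 0.43 and NOP2 by 0.35 and 0.31. Beside these counts, 5.50% of all genes were called higher in BSG and 3.22% in M-BSG. The medians over the 3 lists lay between -0.05 and 0.01 in M-BSG-Hot against M-BSG.

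Nonsense-mediated decay clears spliced host RNAs. Of 14 factors, UPF1, the central helicase, fell by 0.35 (adjusted p = 0.0414) and EIF4A3, of the exon junction complex, rose by 0.36 (adjusted p = 0.0392) in BSG, where 11.7% of all genes were called. SMG1, the kinase of UPF1, was at -0.60 (adjusted p = 0.175) and MAGOH at 0.35 (adjusted p = 0.0577) there. The median over the 14 lay between -0.02 and 0.05 in the 5 comparisons, with members on both sides of 0. Of 6 known target mRNAs of the pathway 3 rose in BSG, GADD45B by 0.75, GADD45A by 0.74 and ATF4 by 0.58. In M-BSG 2 rose, GADD45A and ATF4, both by 0.45, and in M-BSG-Hot against NC GADD45A by 0.56. In M-BSG-Hot against M-BSG the median over the 6 was 0.11. Of 19 short-lived mRNAs 11 rose in BSG, 10 in M-BSG and 6 in M-BSG-Hot against NC, and 3 fell in M-BSG-Hot against M-BSG: ZFP36, an RNA-binding protein gene, by 1.32, NFKBIA by 0.57 and MCL1 by 0.51. Of all genes, 5.50% were called higher in BSG, 3.22% in M-BSG and 1.40% in M-BSG-Hot against NC. In M-BSG-Hot against M-BSG 0.597% were called lower. The median of the 19 short-lived mRNAs in that comparison was -0.15, beside -0.22 for the hosts. Transcript lifetimes are background knowledge and were not measured in these libraries.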

How the data were processed

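RNA-seq of 12 libraries (4 groups of 3) of 143B cells was used. Per the labels' protocols, total RNA went into a SMARTER mRNA-Seq library kit. The authors deposited whole, unnormalised counts by gene symbol and FPKM for every sample; 100% of FPKM values above 0 follow from count, gene length and library total within a relative tolerance of 1e-06. No label or header names the aligner, counter, annotation or strand use. GRCm38 and mm10, both mouse assembly names, stand in the submitters' processing notes, while the symbols are human.

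Counts were tested with edgeR 4.0.16: TMM factors (0.951 to 1.05), filterByExpr with a minimum count of 10 (15407 of 24180 symbols kept), and quasi-likelihood models over the 12 libraries, each group having its own mean, adjusted by Benjamini-Hochberg over all genes tested. Standard errors were taken as the size of the log2 fold change over the root of F. FPKM served only to compare levels between genes. The procedure was run on simulated counts with the same spread for every gene and no outlying libraries. These data differ in both, so that run does not show the error rate here. Replicate pairs differed by more than sampling noise (chi-square per degree of freedom 3.43 to 65.4). The members and lists were chosen with earlier results of these data known. Values by library are given for SNHG1, SNHG4, SNHG12, GAS5, ZFAS1 and up to 12 further called hosts of at least 1 CPM on average. From the other lists up to 3 called genes per comparison with the smallest adjusted p were named; DKC1, GAR1, MAGOH and SMG1, and the genes that overlap a host, were named after their values were seen. Alternatives were DESeq2 1.42.0, limma-voom (limma 3.58.1), other scaling and filters, fewer libraries, a replicate block and a covariate. All 29 symbols matched RefSeq (GRCh38.p14).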

Additional observations from a re-analysis of the deposited data

How the results depend on the processing

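Of 27 calls of named hosts (a host in a comparison), 14 held in all 22 alternatives, 13 lost their call in at least 1, and 0 turned direction. The numbers of hosts called moved as follows. With DESeq2 there were 2 lower in BSG against NC, 3 higher in M-BSG-Hot against NC, 1 higher in M-BSG against BSG and 7 lower in M-BSG-Hot against M-BSG. Over all genes DESeq2 called 1341, 397, 13 and 229 in the same order, where the fit used throughout called 959, 215, 0 and 92. With RLE scaling 2 were higher in M-BSG-Hot against NC, among 229 of all genes. With no count filter 2 were higher in M-BSG-Hot against NC and 1 in M-BSG against BSG, among 208 and 6 of all genes. In fits of the 2 groups alone 0 were lower in BSG against NC, 2 in M-BSG against NC and 1 in M-BSG-Hot against M-BSG, a comparison in which that fit called 3 genes higher and 7 lower in all. Fits of this kind called 821 of all genes lower in BSG and 500 lower in M-BSG, each against NC. Without 3 libraries (M-BSG-Hot 3, M-BSG 1 and BSG 1) the fit gave 2 lower in BSG and 2 higher and 6 lower in M-BSG-Hot against NC, 1 higher in M-BSG against BSG and 7 lower in M-BSG-Hot against M-BSG. Over all genes that fit called 1438 lower in BSG, and 451 higher and 862 lower in M-BSG-Hot against NC. It called 73 higher in M-BSG against BSG and 246 lower in M-BSG-Hot against M-BSG. The ribosomal protein share as a covariate, chosen after seeing the data, gave 3 lower in BSG and 5 higher and 6 lower in M-BSG-Hot against NC, 2 higher in M-BSG against BSG and 13 lower in M-BSG-Hot against M-BSG. Over all genes that fit called 1137 lower in BSG, and 952 higher and 1156 lower in M-BSG-Hot against NC. It called 19 higher in M-BSG against BSG and 515 lower in M-BSG-Hot against M-BSG. The cause was not tested.

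The replicate block gave 0 lower in BSG against NC and 1 higher in M-BSG against BSG, among 1083 and 2 of all genes. It ended the calls of SNHG20 in BSG against NC (adjusted p = 0.0544), SNHG11 in M-BSG against NC (0.0560) and SNHG12 in M-BSG-Hot against M-BSG (0.0608). The replicate numbers share no stated source: 4 of 18 same-number pairs had deviations correlated above 0.1 (-0.287 to 0.408), and 5 of 12 libraries correlated best with their own number.

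Without 1 library at a time, hosts higher and lower ranged from 7 to 11 and 0 to 1 in BSG, 3 to 9 and 0 to 1 in M-BSG, and 1 to 3 and 2 to 3 in M-BSG-Hot, each against NC. They ranged from 0 to 1 and 0 to 0 in M-BSG against BSG, and from 0 to 0 and 2 to 5 in M-BSG-Hot against M-BSG. Over all genes, calls in the same fits ranged from 424 to 1329 higher and 429 to 1227 lower in BSG against NC. The ranges were 295 to 635 and 248 to 575 in M-BSG against NC. In M-BSG-Hot against NC they were 103 to 304 and 285 to 654. M-BSG against BSG had 0 to 3 and 3 to 24, and M-BSG-Hot against M-BSG 3 to 20 and 22 to 123. Hosts below 1 CPM are limited by depth.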
